A study of Rattus norvegicus with 3 samples.

Results

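The 10 genes described here carry out acid and base transport in the intercalated cells of the kidney collecting duct: Atp6v1b1, Atp6v0d2, Atp6v1g3, Atp6v0a4, Slc4a1, Slc26a4, Foxi1, Car2, Rhcg and Rhbg. They were taken by name from the array's annotation, where Car2 is listed as Ca2 and was found through its accession, and they are 10 of the 17938 named genes on the array. All 10 had a probe above background on every array, as did 9641 named genes in all. The members have 11 probes, since Foxi1 has 2. Kidney RNA came from male spontaneously hypertensive rats (SHRs) of Wistar background, aged 8 to 10 weeks and weighing 280 to 330 g, which received water or the mussel protein hydrolysate named HBMP by mouth, in about 3 mL, once a day for 4 weeks. The control group received water, the low-dose group 10 mg/kg/day and the high-dose group 20 mg/kg/day. Each group had 10 rats, of which 4 gave RNA to 1 pool that was hybridised to 1 Agilent rat array with the dye Cy3. All 3 arrays lay on 1 slide, each at its own place, so place and group cannot be told apart. With 1 array per group there is no spread between samples, no test was possible, and each value describes that array only. Scaled intensities, the spot brightness after the arrays were brought to a common 75th percentile, are given below in the order control, low dose, high dose, and differences are on the log2 scale.

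Intercalated cells are scattered among the principal cells of the connecting tubule and collecting duct and set the final pH of the urine. Type A cells secrete acid through a proton pump, the V-ATPase, in the membrane facing the urine, and return bicarbonate to the blood through the anion exchanger encoded by Slc4a1. Type B cells secrete bicarbonate through pendrin, the exchanger encoded by Slc26a4. The transcription factor Foxi1, a forkhead protein, is needed for these cells to form and drives several of their pump and exchanger genes. Carbonic anhydrase II, encoded by Car2, supplies protons and bicarbonate inside the cell. The Rh glycoproteins encoded by Rhcg and Rhbg carry ammonia across the membranes of the cell.

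Because Foxi1 is a forkhead factor, the 250 bases before the start of each member gene were searched for the forkhead core in the forms TGTTTAC and TGTTTGC and, with another second base, TATTTAC and TATTTGC, on both strands, forms that cannot match at the same position. RefSeq sequences of the build GRCr8 were matched for 7 of the 10 members. Of these 7, only Atp6v1b1 held a match to these forms, TGTTTAC on the gene's own strand, whose first base lies 93 bases before the start. Forms ending in T in place of C were not searched, so a member without a match may still hold such a form. Over all 33469 promoters of the table, 12.2% held at least 1 match. The stretches of Atp6v1b1, of Foxi1 and of Slc26a4 are shown. The first holds the match, the second belongs to the regulator, and the third to the exchanger of type B cells. Slc26a4 lay below control at both doses under 75th percentile scaling, as did Foxi1 by its brighter probe, Atp6v0a4 and 45.3% of all genes. A link between these genes was not tested. Capitals mark the match, and lower case holds the rest.
Atp6v1b1 promoter, GRCr8 chr4:117781194-117781443, plus strand: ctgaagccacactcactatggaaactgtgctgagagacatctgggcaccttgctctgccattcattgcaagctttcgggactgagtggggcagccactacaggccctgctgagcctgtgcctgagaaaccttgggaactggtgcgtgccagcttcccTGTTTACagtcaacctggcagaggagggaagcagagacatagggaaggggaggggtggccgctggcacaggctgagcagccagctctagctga
Foxi1 promoter, GRCr8 chr10:19314406-19314655, minus strand: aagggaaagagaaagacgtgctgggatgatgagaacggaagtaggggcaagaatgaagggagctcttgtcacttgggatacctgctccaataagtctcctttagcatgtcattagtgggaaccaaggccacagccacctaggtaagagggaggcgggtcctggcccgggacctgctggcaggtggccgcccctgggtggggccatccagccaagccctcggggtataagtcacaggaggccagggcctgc
Slc26a4 promoter, GRCr8 chr6:53873217-53873466, minus strand: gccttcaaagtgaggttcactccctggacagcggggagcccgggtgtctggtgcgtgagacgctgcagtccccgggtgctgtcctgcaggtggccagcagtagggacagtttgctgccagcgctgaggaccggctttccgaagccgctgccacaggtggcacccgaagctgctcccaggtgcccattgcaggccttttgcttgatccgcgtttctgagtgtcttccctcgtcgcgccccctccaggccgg
A match is a description of these letters, and no binding was measured.

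The comparison of the low dose with control asked whether these genes differ in kidneys of treated animals. All 10 members stood slightly below control at the low dose under 75th percentile scaling (6 of 10 under spike-in scaling, described further on), with log2 differences between -0.40 (Foxi1) and -0.10 (Atp6v0d2) and a median of -0.31. None of the 10 differed by 2-fold, where 3.16% of the 9734 named genes above background on both arrays did. Most genes lay a little low in this comparison as well: 64.3% were below control, and the median over all was -0.11. Set against that median, 9 members lay below it and Atp6v0d2 level with it. Of the 9, Rhcg and Atp6v1b1 also lay close to it, at -0.02 and -0.03 from it. The median over members lay -0.20 from that over all genes.

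At the high dose the members separated. Against control, 7 of 10 stood above, where 43.6% of all 9891 genes did, and Atp6v0a4, Slc26a4 and Foxi1 stood below. The differences ran from -0.64 (Foxi1) to 0.40 (Rhcg), with a median of 0.15 against -0.04 over all genes. Again 0 of 10 passed 2-fold, where 1.0% of genes did. At a limit of 1.5-fold, which was added after the data were seen, 1 member passed, Foxi1, which was lower, while 7.51% of all genes passed in either direction and 3.79% were lower. Foxi1 passed that limit under 8 of the 12 other settings and not with the mean over its probes, the correction for position, normexp or spike-in scaling. Under spike-in scaling Rhcg (0.73) and Atp6v0d2 (0.70) passed as higher instead, where 16.5% of all genes did. At the low dose 0 of 10 passed 1.5-fold, with 11.3% of all genes past it in either direction.

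Setting the doses against each other asks whether levels differ with the amount given. Every member except Foxi1 stood higher at the high dose than at the low dose, 9 of 10 (8 of 10 under median scaling, with Slc26a4 at -0.024), where 55.1% of 10137 genes did. The median was 0.35 against 0.04 over all genes, with Slc4a1 highest at 0.58 and Foxi1 lowest at -0.24. None passed 2-fold, where 1.94% of genes did. Under 75th percentile scaling none passed 1.5-fold, where 9.56% did, but Slc4a1 lay at its edge, at 1.498-fold. Slc4a1 passed it as higher with quantile scaling and in the authors' table (0.59 in both), where 2.76% and 2.97% of genes did. With the correction for position Rhcg passed it as higher (0.66), where 3.98% of genes did. Under spike-in scaling Atp6v1g3, Slc4a1 and Rhcg passed 1.5-fold as higher, where 5.37% of genes did. The comparisons share arrays, so a low value on the low-dose array enters the first and the last of them alike. Under 75th percentile scaling the low-dose array was lowest and the high-dose array highest in 7 of 10 members, as in 19.1% of 9641 genes. The other 3, Atp6v0a4, Slc26a4 and Foxi1 by its brighter probe, lay below control at both doses, as 45.3% of genes did. These patterns turned with the scaling. With median scaling Atp6v0d2 (0.03) and Rhcg (0.01) stood above control at the low dose, and Car2 (-0.01) below it at the high dose. Under spike-in scaling Atp6v1b1, Atp6v0d2, Rhcg and Rhbg stood above control at the low dose. At the high dose Atp6v0a4 (0.12) and Slc26a4 (0.08) then stood above it too.

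**Figure D1:**
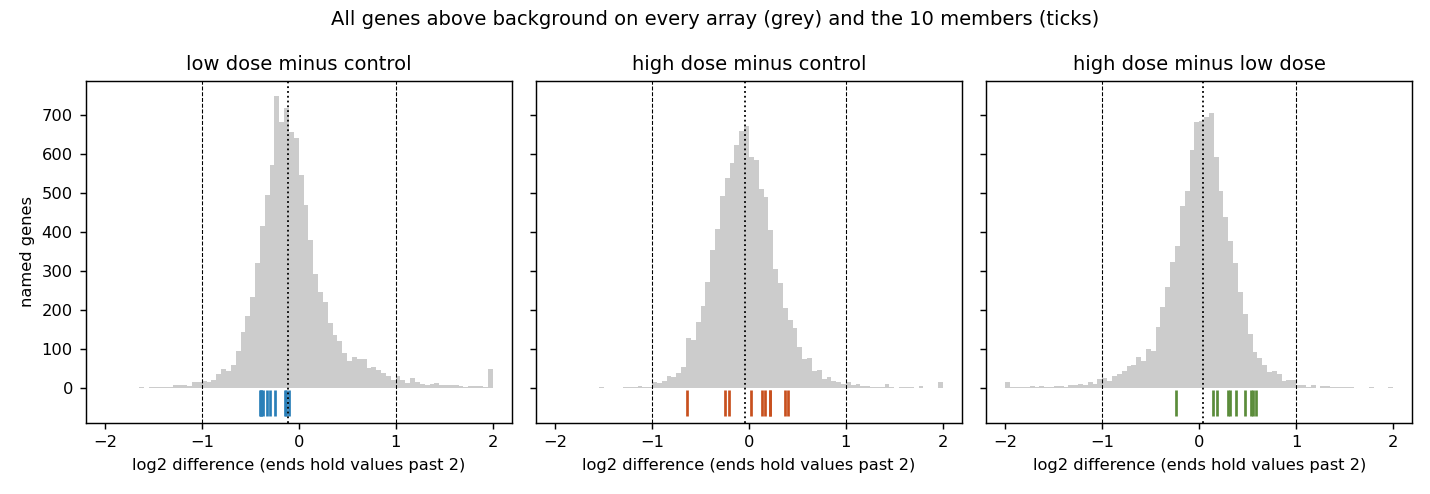
Log2 differences of the 9641 named genes above background on every array (grey bars, number of genes) with the 10 members as coloured ticks, in the 3 comparisons; the dotted line is the median of all genes and dashed lines mark 2-fold. At the low dose the ticks lie left of the dotted line, with Rhcg and Atp6v1b1 close to it, apart from Atp6v0d2 on it. They spread from -0.64 to 0.40 at the high dose. Between the doses they lie right of the dotted line except for Foxi1 at -0.24.

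For some members, whether they stood above or below control depended on how the arrays were scaled. Besides the 75th percentile, other common levels can be used. The array also holds control probes for E1A spike-in RNA, and the 6 of these above background on every array stood at a median of -0.29 at the low dose and -0.33 at the high dose against control (ranges -0.34 to -0.25 and -0.38 to -0.19). The labels used here do not say how that RNA was added. When the arrays were scaled on these probes, a setting added after the data were seen, the median of all genes moved to 0.17 at the low dose and 0.29 at the high dose, and that of the members to -0.04 and 0.48. Members above control then numbered 4 of 10 at the low dose (Atp6v1b1, Atp6v0d2, Rhcg and Rhbg), with 25.9% of all genes below control, and 9 of 10 at the high dose, with 16.6% below. With equal medians in place of the 75th percentile, 2 members stood above control at the low dose, with 45.7% of all genes below, and 6 at the high dose, with 60.2% below. Spike-in and median scaling shift all genes alike, so counts relative to the median of all genes could not change. As under 75th percentile scaling, 9 members were below it at the low dose, 7 above it at the high dose and 9 between the doses. Quantile scaling, which could change these counts, gave 10, 7 and 9. In bulk RNA, fewer cells of a type and less RNA per cell cannot be told apart.

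**Figure D2:**
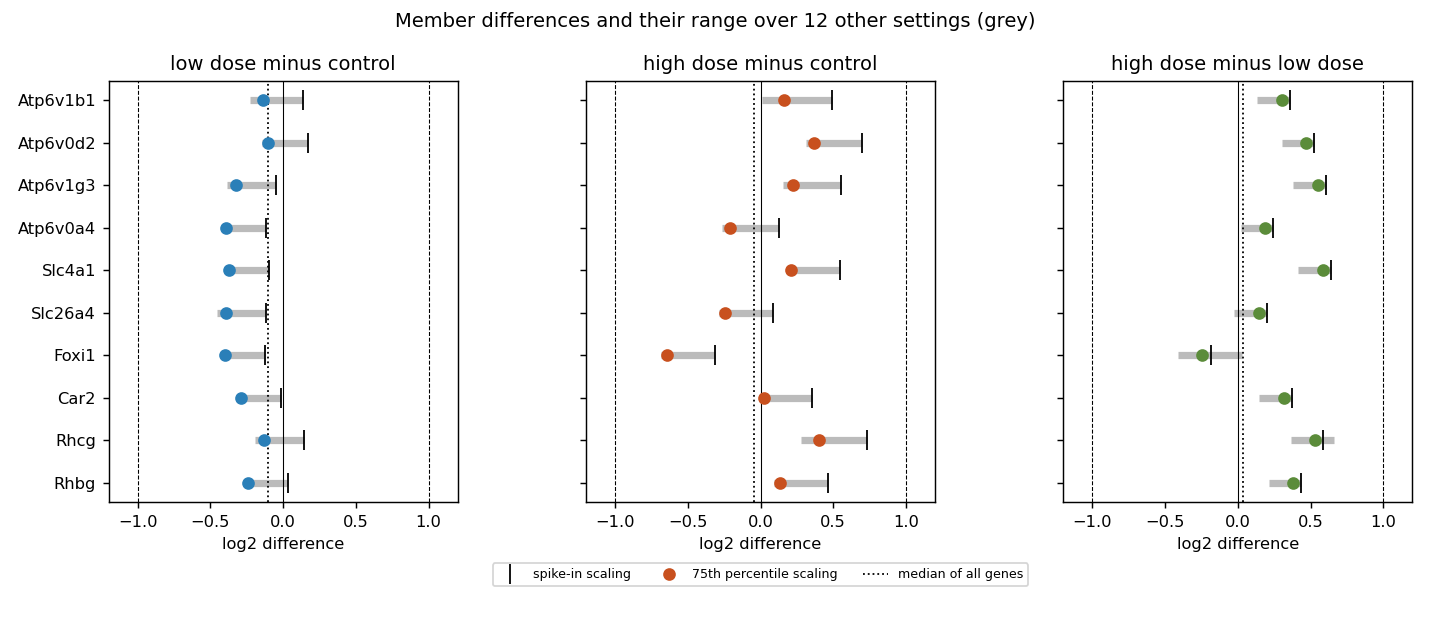
Log2 differences of each member in the 3 comparisons under 75th percentile scaling (coloured points), under spike-in scaling (black ticks) and over 12 other settings (grey bars, lowest to highest); the dotted line is the median of all genes, and dashed lines mark 2-fold. No bar reaches 2-fold, Foxi1 lies farthest left at the high dose at -0.64, and spike-in scaling moves every point to the right.

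The 4 pump subunits in the list are the forms of the V-ATPase that are enriched in intercalated cells. The pump has a V1 part, which splits ATP, and a V0 part, through which protons pass. Atp6v1b1, a V1 subunit in which loss of function causes distal renal tubular acidosis, had scaled intensities of 679, 618 and 761. The log2 difference was -0.14 at the low dose and 0.16 at the high dose. With the median difference of the neighbouring spots removed, the high-dose value was 0.01, so control and high dose were then level. Atp6v1g3, the kidney form of the G subunit in V1, had scaled intensities of 646, 515 and 753. The low-dose array was again lowest, 1.26-fold below control, and the high-dose array highest, 1.46-fold above the low dose.

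Atp6v0a4 and Atp6v0d2 belong to V0. Atp6v0a4, the kidney form of the proton-conducting a subunit and a second gene of distal renal tubular acidosis, had scaled intensities of 3674, 2798 and 3182. Control was highest, and the treated arrays stood at -0.39 and -0.21. Under spike-in scaling the high-dose difference changed sign, to 0.12. Atp6v0d2, the d subunit of kidney, osteoclasts and macrophages, was measured on 10 spots with mean scaled intensities of 318, 296 and 410. The high-dose array was highest, at a log2 difference of 0.37 against control and 0.47 against the low dose. Over the 4 subunits the median difference was -0.23 at the low dose and 0.19 at the high dose, and all 4 were higher at the high dose than at the low dose (0.19 to 0.55).

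**Figure D3:**
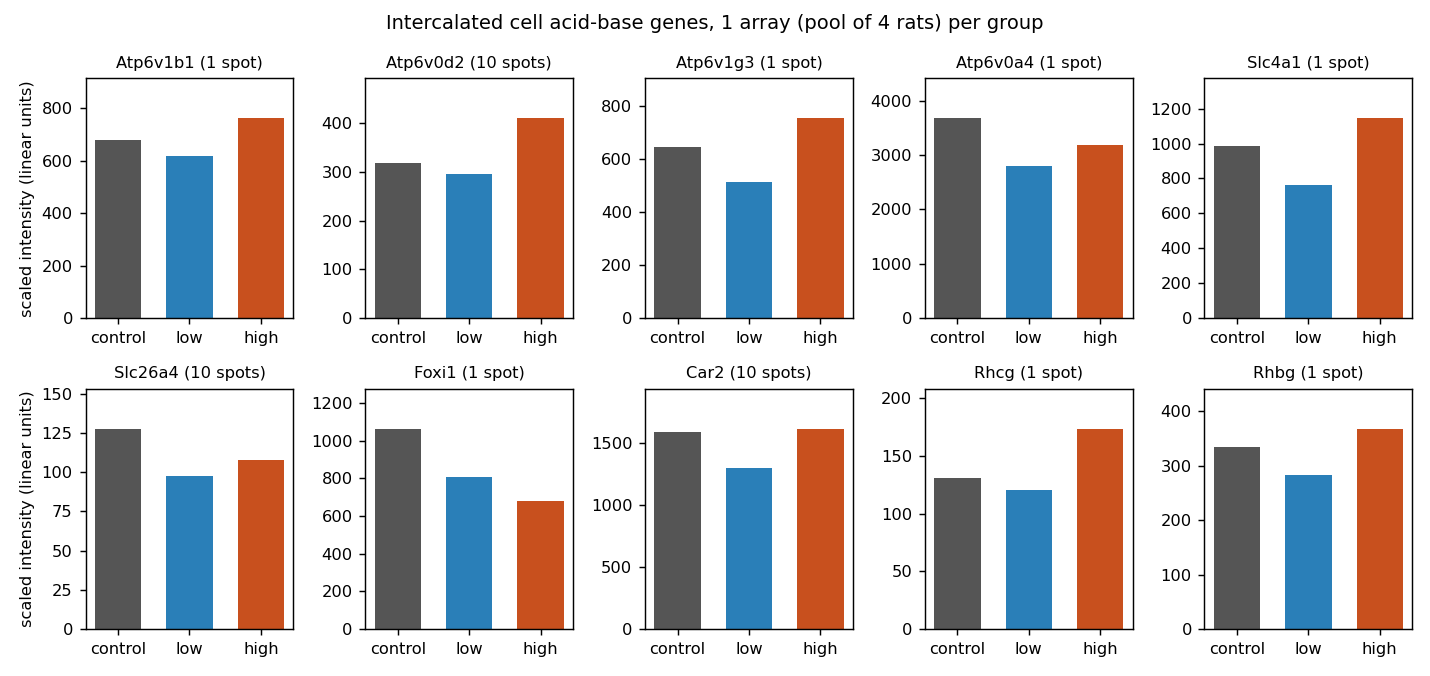
Scaled intensity (linear units, each panel with its own axis from 0) of the 10 members by group (control, low, high), with the number of spots of the probe. The low-dose bar is the shortest in every panel except Foxi1, whose bars run from 1061 on control to 805 and 680.

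The log2 differences from control of the widely expressed relatives were at most 0.46 away from those of these subunits at either dose. Atp6v1b2, the B subunit of most cells, stood at -0.27 and -0.04 (log2 difference at the low and high dose) beside -0.14 and 0.16 for Atp6v1b1. Atp6v0d1 stood at -0.23 and 0.15 beside -0.10 and 0.37 for Atp6v0d2. In both pairs the kidney form's difference from control was thus above that of its relative, by 0.13 at the low dose and 0.21 at the high dose. Atp6v1g1 stood at 0.13 and 0.18 beside -0.33 and 0.22 for Atp6v1g3, and Atp6v0a1 at -0.12 and -0.33 beside -0.39 and -0.21 for Atp6v0a4. In those pairs the kidney form had the lower difference from control at the low dose, by 0.46 and 0.27.

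Of the anion exchangers, Slc4a1 had scaled intensities of 987, 764 and 1144. The low-dose array was 1.29-fold below control, and the high-dose array stood above the low dose by 0.58, ahead of Atp6v1g3 at 0.55 and Rhcg at 0.53. With the correction for position Rhcg stood at 0.66 and Slc4a1 at 0.56. Red cell precursors make the same transcript in a longer form, and the probe was not assigned to either form here. Of 8 erythroid markers above background on every array, 4 were above control at each dose, with medians of 0.01 and 0.05. Their summed scaled intensity was 46503, 53393 and 55060. Alas2, the haem synthesis enzyme of red cell precursors, stood at 0.60 and 0.97. Of the haemoglobin genes, Hba-a1 stood at -0.06 and -0.02, Hbb at 0.29 and 0.31, and Hbb-b1 at 0.67 and 0.75. Rhag, the Rh glycoprotein of red cells and not among the 8, was not above background on any array. All 8 stood higher at the high dose than at the low dose, by a median of 0.06 where Slc4a1 stood higher by 0.58. Their part in the Slc4a1 values was not tested.

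Slc26a4, the pendrin gene, lay below control at both doses, unlike Slc4a1. Its 10 spots had mean scaled intensities of 128, 97.4 and 108. The log2 differences were -0.39 and -0.25, and 0.14 between the doses. Slc4a9, another exchanger of type B cells, which was not a member, also lay below control at both doses, at -0.56 and -0.62. Under spike-in scaling Slc26a4 stood at -0.12 and 0.08, so its place against control at the high dose turned with the scaling. No difference between the exchangers could be tested.

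Foxi1 lay below control at both doses by its brighter probe and differed most from control among the members at the high dose under 75th percentile scaling, but not with the mean over its probes or under spike-in scaling. The brighter probe, 1 spot, had scaled intensities of 1061, 805 and 680, so control was highest and the high dose lowest. The log2 differences were -0.40 and -0.64, the latter 1.56-fold lower, and 2.31% of the 9891 genes lay lower at the high dose. The second probe, also 1 spot, was near background, with signal-to-noise ratios of 3.63, 4.29 and 4.63, and gave -0.30 at the low dose and 0.01 at the high dose. The probes thus differed at the high dose, and the mean of both gave -0.32 there and 0.03 between the doses, in place of -0.24. With the median difference of neighbouring spots removed, the brighter probe stood at -0.50, and under spike-in scaling at -0.31.

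The carbonic anhydrase gene Car2, which is also active in proximal tubule and red cells, had mean scaled intensities of 1589, 1298 and 1614 over 10 spots. Control and high dose differed by 0.02, with -0.01 under median scaling and 0.15 in the authors' deposited table, and the low dose was 1.22-fold below control. Rhcg, the ammonia channel of the urine-facing and blood-facing membranes, had scaled intensities of 131, 120.0 and 173. Against control it stood at 0.40 at the high dose, or 1.32-fold, and 91.3% of all genes lay lower. In the authors' deposited table it stood at 0.37, below Atp6v0d2 at 0.45, and with normexp at 0.28, below Atp6v0d2 at 0.35. Rhbg, its partner in the blood-facing membrane, had 334, 282 and 368 and differed by -0.24 and 0.14, or -0.11 and 0.27 with the correction for position. Under 75th percentile scaling both Rh genes were lowest at the low dose and highest at the high dose. Both are also expressed outside intercalated cells, in connecting tubule and principal cells.

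For the 3 members printed on 10 spots, the differences can be set against the spread between spots of the same hybridisation. That spread holds nothing of the spread between animals, nor of the choice of scaling, which shifts all spots of an array together. Under spike-in scaling Atp6v0d2 stood at 0.17 and 0.70 (low and high dose), Slc26a4 at -0.12 and 0.08, and Car2 at -0.02 and 0.35. The spot counts and SDs that follow are under 75th percentile scaling. Atp6v0d2 was higher at the high dose than on control in 10 of 10 spots, by 0.38 ± 0.18 (log2, mean and SD over spots), and than at the low dose in 10 of 10, by 0.47 ± 0.05. At the low dose 8 of its 10 spots were below control. One of its spots lies in a dim corner of the control array and gave the lowest control value, 212, and without that corner the high-dose difference was 0.33. Slc26a4 was below control in 10 of 10 spots at both doses, by -0.39 ± 0.11 and -0.24 ± 0.10. Car2 was below control in 10 of 10 spots at the low dose (-0.28 ± 0.09) and in 5 of 10 at the high dose (0.03 ± 0.06). Its low-dose spots ran from 1086 to 1498 with a median of 1309 and its control spots from 1171 to 1888 with a median of 1627, so the ranges overlapped although each spot was lower than its counterpart. Over the 1111 probes with 10 spots above background on every array, the median SD of such differences was 0.12 at either dose against control and 0.083 between doses.

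**Figure D4:**
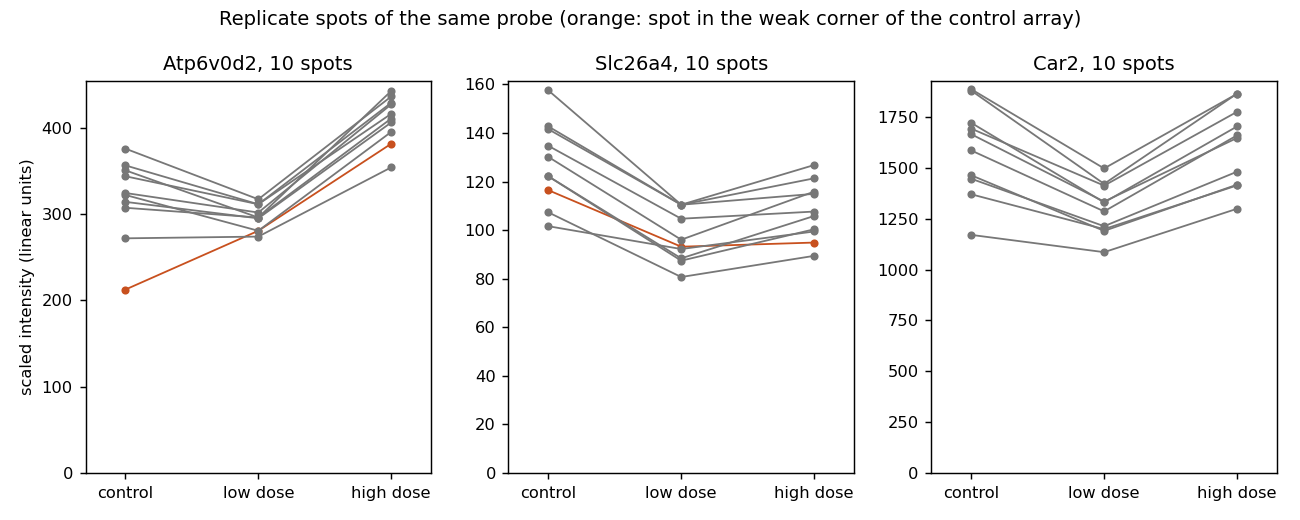
Scaled intensity (linear units, axis from 0) of each of the 10 spots of the Atp6v0d2, Slc26a4 and Car2 probes on the 3 arrays; a line joins the spot at the same place on each array, and orange marks a spot in the dim corner. Lines of Atp6v0d2 climb to the high dose in all 10 spots, Slc26a4 lines drop from control in all 10, and Car2 lines dip at the low dose.

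Other genes of the same pathway also stayed mostly within 2-fold, which 3.16% of all genes passed at the low dose and 1.0% at the high dose. Of 21 further V-ATPase subunits and accessory proteins, 19 were above background on every array, and 0 passed 2-fold at either dose. Their median was -0.15 at the low dose and 0.07 at the high dose, with Atp6v1d at the top of both comparisons (0.16 and 0.44), Atp6v1c2 lowest at the low dose (-0.44) and the accessory subunit Atp6ap1 lowest at the high dose (-0.43). Of 25 other intercalated cell genes, 15 were above background on every array and 0 passed 2-fold. Their median was -0.20 at the low dose and -0.31 at the high dose. Of the 15, 12 and 11 were below control, where 64.3% and 56.4% of all genes were. Dmrt2, a transcription factor of type A cells, was highest at the high dose at 0.41. At the low dose Jag1, a Notch ligand, was lowest at -0.65 and Bsnd, the chloride channel subunit barttin, highest at 0.34. The direction above control of most members at the high dose was thus not seen in this second list, and the difference between the lists was not tested.

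The remaining acid-base genes of the kidney, many of them in the proximal tubule, had a median of -0.22 at both doses over 15 measured genes. Of these, 1 passed 2-fold: Slc4a7, a sodium bicarbonate cotransporter, at 1.12 at the high dose, from scaled intensities of 24.0, 40.3 and 52.0. Its signal was dim, and with normexp background correction the difference was 0.31. The glutamine carrier Slc38a3, which feeds ammonia production, was lowest at the low dose, at -0.998 and so just within 2-fold, and stood at -0.22 at the high dose. Its scaled intensities were 117, 58.6 and 100, and with normexp the low-dose difference was -0.62.

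**Figure D5:**
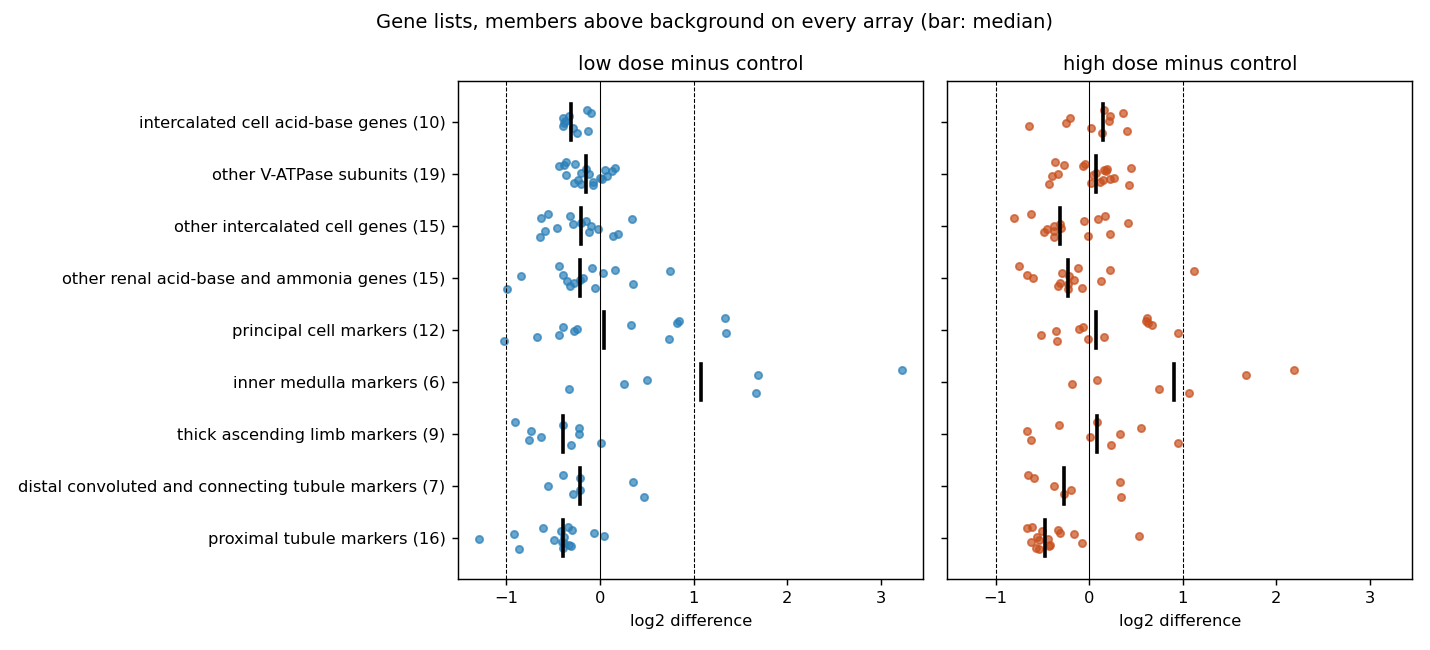
Log2 differences of each measured gene (points) in 9 gene lists at the low and the high dose against control, with the list median as a black bar and 2-fold as dashed lines; numbers in brackets are genes above background on every array. The 10 members lie within -0.64 and 0.40, while inner medulla markers have medians of 1.08 and 0.91 and single principal cell markers pass 2-fold at the low dose.

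The neighbouring principal cells share the collecting duct with these cells. The medians of 12 principal cell markers were 0.04 and 0.07 at the low and high dose, with 6 above and 6 below control at each. The water channel gene Aqp2 stood at 1.34 and 0.62 and the pump regulator Fxyd4 at 1.34 and 0.95. St6gal1 stood at -1.03 and -0.34, and the sodium channel subunit Scnn1a at -0.40 and -0.07. At the 1.5-fold limit, 5 of the 12 were higher at each dose, where 6.72% and 3.72% of all genes were. At that limit 2 were lower at the low dose and 0 at the high dose, where 4.54% and 3.79% of all genes were. Marker lists of other tissue parts and cell types moved with the arrays too. Thick ascending limb markers had medians of -0.39 and 0.08, with all 9 higher at the high dose than at the low dose, as 9 of 10 members were, and proximal tubule markers had medians of -0.39 and -0.47. The summed scaled intensity of 6 inner medulla markers was 1620, 3006 and 2342, that of 8 adipocyte markers 1406, 9270 and 4555, and that of 13 macrophage and osteoclast markers, cells that also make Atp6v0d2, 19061, 26991 and 17454. The median of those 13 was 0.94 at the low dose and 0.10 at the high dose. The part of tissue composition in the members' values was not tested.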

How the data were processed

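Each array is a scan at 532 nm of a rat oligonucleotide array carrying Cy3-labelled cRNA, read with GenePix Pro 6.1.0.4, per the file headers; Agilent Feature Extraction stands in the submitters' processing notes. The spot intensity was deposited as mean and median pixel brightness minus a constant background of 39 or 40, per the file headers. The deposited signal-to-noise ratio and spot flag are scores, and saturated pixels are a percent of a spot, per the file headers. A log2 table from the authors was deposited too, with equal medians of 4.77, scaled by a method not given in the sources used here. One header, of the high-dose array, gives a mouse design as the array's name, but its 45220 spots carry the same annotation as the other arrays.

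Control spots, bright spots the software did not find, and spots with net pixel mean and median over 1.5-fold apart were left out. A probe's spots were averaged, scaled to an equal 75th percentile (factors 1.14, 0.960 and 0.912 for control, low and high dose), floored at 1 and log2-transformed. A probe was above background when 50% of its spots reached a signal-to-noise ratio of 3, which held for 50.4% to 54.7% of 30367 probes. Of these probes, 18355 were named through accessions in RefSeq (GRCr8), and a gene with several probes was given by the one detected on most arrays or, in a tie, the brightest. A size rule of 2-fold was used in place of a test. The members, gene lists and settings were chosen with earlier results of these data known. All members were named. The rule also names up to 4 genes past 2-fold of each other list or, where none passed, the highest and lowest. This was carried out for the pathway and principal cell lists in the comparisons with control, while the other marker lists are given by medians, counts and sums. Also named were relatives of members and a few principal cell and erythroid genes. Among the other intercalated cell genes, 1 that the rule names is not reported here. The scaling and size rule were checked on simulated data. The planted differences were all beyond 2-fold and held no spread between animals, so that check does not bear on differences as small as the members'. Python 3.11.15, pandas 2.3.3, R 4.3.3 and limma 3.58.1 were used, the last for normexp with an offset of 50. The further settings were quantile and median scaling, normexp, the authors' table, pixel medians, non-uniform spots kept, the weak corner left out (rows 1 to 20, columns 1 to 40), the mean over probes, a floor of 16, a signal-to-noise ratio of 5 and, added after seeing the data, spike-in scaling, removal of the local median in tiles of 10 rows by 20 columns, and the 1.5-fold rule. Because arrays were not replicated, no replicate could be left out.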

Additional observations from a re-analysis of the deposited data

How the results depend on the processing

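No member passed 2-fold in any of the 3 comparisons under the 12 other settings that kept that rule, and the largest log2 difference of a member among them was 0.73 in size. With the 1.5-fold rule, 1 member passed at the high dose against control, Foxi1 as lower, and with spike-in scaling besides, 2 others as higher and not Foxi1. Over 360 member values under these settings, 11 had a sign other than under 75th percentile scaling: 6 with spike-in scaling, 4 with median scaling and 1 with the mean over probes. The median over members moved by more than the spread between replicate spots in 4 cases. It was -0.17 with median scaling and -0.035 with spike-in scaling at the low dose, 0.48 with spike-in scaling at the high dose, and 0.18 with median scaling between the doses. With spike-in scaling the medians at the low dose were 0.13 for other V-ATPase subunits, 0.073 for other intercalated cell genes and 0.059 for other acid-base genes, and at the high dose 0.41, 0.019 and 0.11. With median scaling they were -0.010, -0.066 and -0.080 at the low dose, and 0.059, -0.19 and -0.19 between the doses. With the mean over probes, other intercalated cell genes stood at -0.33 at the low dose and 0.10 between the doses. Spike-in and median scaling shift every gene alike by construction, and the cause of the other moves was not tested. No paired analysis was possible because each group has 1 array. The deposited files give no replicate of any pool, so differences of this size cannot be told from the spread between animals, and dim probes such as the second of Foxi1 limit what can be read.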
